A study of Rattus norvegicus with 19 samples.

Results

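Cilia are microtubule-based projections of the cell surface. Motile cilia, which in the brain are carried by the ependymal cells that line the ventricles and move the cerebrospinal fluid, hold an axoneme whose axonemal dyneins, radial spokes and microtubule inner proteins make them beat, and the forkhead factor Foxj1 and the RFX factors switch on the genes of that axoneme. Primary cilia are single, mostly immotile antennae of neurones and glia, built and maintained, as motile cilia are, by intraflagellar transport. Cargo is carried there by the Bardet-Biedl syndrome proteins (the BBSome) past a gate at the base, the transition zone, to which the tectonic proteins belong.

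The cilium genes described here were all genes on the array whose symbol begins with Dnah, Dnai, Dnal, Dynlrb, Tekt, Cfap, Rsph, Ift with a number, Bbs with a number, or Tctn, together with Ak7, Mlf1, Tmem212, Cimap1b, Foxj1, Vwa3a and C3h20orf96. This gave 74 genes, with 93 probe sets, of the 14217 genes that the array names by a single symbol. A gene with several probe sets, of which there were 16, was represented by the one with the highest mean signal. By role they were 4 axonemal dynein heavy chains (Dnah), 4 dynein intermediate and light chains (Dnai and Dnal), 2 dynein roadblock light chains (Dynlrb), 7 tektins (Tekt), 19 cilia and flagella associated proteins (Cfap), 5 radial spoke head proteins (Rsph), 17 intraflagellar transport proteins (Ift), 7 Bardet-Biedl syndrome genes (Bbs), 2 tectonics (Tctn) and the 7 genes given by name.

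RNA came from the paraventricular nucleus (PVN), which lies beside the third ventricle, and the supraoptic nucleus (SON), which lies beside the optic chiasm at the base of the brain. Both were dissected from untreated male rats of 12 weeks by their labels, of the inbred Wistar Kyoto strain (WKY, normotensive) or the inbred Spontaneously Hypertensive strain (SHR, hypertensive). There were 5 arrays each of the PVN of WKY, the PVN of SHR and the SON of WKY and 4 of the SON of SHR, each read as a pool of nuclei, so p-values measure the spread between pools and not between rats. In such tissue, fewer cells of a type and less RNA per cell cannot be told apart.

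Levels are log2 of the MAS 5.0 signal after each array was scaled to a common median, with signals under 3.75 (log2 1.91) set to that floor, and differences are log2 differences. Levels of different probe sets cannot be ranked against each other. A probe set entered the test if 1 or more of the groups compared had a mean as high as the median probe set, and it was called at an adjusted p under 0.05 (limma, two-sided, Benjamini-Hochberg over all probe sets tested). Median signals of the arrays lay between 35.9 and 46.5, and 8.33 to 10.6% of probe sets per array were at the floor. The PVN array SHR 4 and the SON array WKY 3 correlated least with their own group (mean correlation 0.947 and 0.929).

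The promoters of the cilium genes were read because many of these genes move together and because RFX factors bind a known short motif, GTTGCC, which was searched on both strands. RefSeq windows of 250 bases before and 50 after the start, on the assembly GRCr8, were given for 63 of the 74 genes, and a gene counted where any of its windows held the letters. The motif was found in 24 of 63 cilium genes (38.1%) and in 3594 of 27457 genes with a window (13.1%). Among the Dnah, Dnai, Dnal, Tekt, Cfap and Rsph genes and the 7 genes given by name it was found in 15 of 40 (37.5%), and among the Ift, Bbs and Tctn genes in 9 of 22 (40.9%). The stretches below, printed 5′ to 3′ on the strand of the gene with the motif in capitals (GGCAAC where it is on the opposite strand), show it in 5 genes whose levels differed at least 2-fold between the nuclei and in 2 whose levels differed less, Ift88 and Bbs5.
Tekt1: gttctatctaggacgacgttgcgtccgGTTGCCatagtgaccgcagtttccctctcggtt
Mlf1: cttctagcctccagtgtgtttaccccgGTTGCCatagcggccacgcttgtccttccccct
Cimap1b: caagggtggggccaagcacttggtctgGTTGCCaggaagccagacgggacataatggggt
Dnah2: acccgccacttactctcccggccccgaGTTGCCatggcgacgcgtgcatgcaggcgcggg
Cfap161: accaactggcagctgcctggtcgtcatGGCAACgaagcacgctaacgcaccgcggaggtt
Ift88: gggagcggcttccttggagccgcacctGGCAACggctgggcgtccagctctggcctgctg
Bbs5: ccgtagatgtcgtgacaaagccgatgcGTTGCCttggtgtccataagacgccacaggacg
These lie at chr10:57479128-57479187, chr2:153958413-153958472, chr7:122326947-122327006, chr10:54766039-54766098, chr1:147177846-147177905, chr15:35688926-35688985 and chr3:74818574-74818633 in that order, with Tekt1, Cimap1b, Dnah2 and Cfap161 on the minus strand and the others on the plus strand. The motif of Tekt1 starts 39 bases before the start of the gene, that of Ift88 34 and that of Mlf1 151. It was found about as often in genes that were at least 2-fold lower in the SON of both strains (9 of 26, 34.6%) as in the other cilium genes (15 of 37, 40.5%). Of the 4 genes called between the strains below, Tekt1 holds it. Ak7, Vwa3a and C3h20orf96 do not hold these letters in the 250 bases before the start, of which the last 100 are shown for comparison. The counts above also cover the 50 bases after the start, which are not shown for these genes.
Ak7: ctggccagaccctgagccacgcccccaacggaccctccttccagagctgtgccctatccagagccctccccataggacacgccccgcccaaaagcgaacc
Vwa3a: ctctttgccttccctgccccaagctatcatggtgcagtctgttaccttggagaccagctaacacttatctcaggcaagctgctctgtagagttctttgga
C3h20orf96: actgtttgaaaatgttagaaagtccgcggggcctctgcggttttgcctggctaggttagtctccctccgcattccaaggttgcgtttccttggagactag
They lie at chr6:130376504-130376603, chr1:184725070-184725169 and chr3:161349843-161349942, each on the plus strand. A match is a run of letters and not a measured binding site, and its absence says only that these letters are not in the bases read.

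The first question was how the nuclei differ. Of the 40 tested Dnah, Dnai, Dnal, Tekt, Cfap and Rsph genes and genes given by name, 29 were lower in the SON than in the PVN by 2-fold or more in WKY and 29 in SHR, and of the 25 tested Ift, Bbs and Tctn genes 0 were. In WKY, 44 of the 67 cilium genes tested were lower in the SON, 0 were higher and 23 did not pass, with a median difference of -0.68. In SHR, 51 were lower, 0 were higher and 16 did not pass, with a median of -0.75. Over all probe sets tested, 13.7% were called lower and 13.2% higher in WKY, and 15.7% lower and 13.7% higher in SHR, and the medians were -0.01 and -0.02. At 2-fold or more, 839 of the 17095 probe sets tested were called in WKY and 966 in SHR, both directions together. Each difference comes from its own arrays, but the filter and the estimate of spread were shared by both strains. Lower in both were 42 cilium genes, a count made for the cilium genes only.

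The filter bears on these counts. Of the 67 genes, 45 reached the filter in both nuclei and 22 only through the PVN, so those 22 had to be lower in the SON or stay near the limit. All 22 were among the 40 axoneme and singly named genes. Among the 18 of these that reached it in both nuclei, 11 were lower in WKY with a median of -0.97 and 12 in SHR with a median of -0.80. The 25 transport genes reached it in both nuclei, with medians of -0.33 and -0.40, and whether the sets differ was not tested. Of the 22, 11 were at the floor on at least 1 SON array, and their differences are lower limits in size. The other 7, Bbs12, Dnah17, Rsph3, Rsph6a, Tekt5, Tekt5l1 and Tektl1, were too low to be tested. Without a filter all 74 were tested, and 41 were lower and 1 higher in the SON of WKY, and 50 were lower and 1 higher in the SON of SHR. The share of all probe sets called in that fit was not counted, so these counts cannot be weighed against it.

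**Figure D1:**
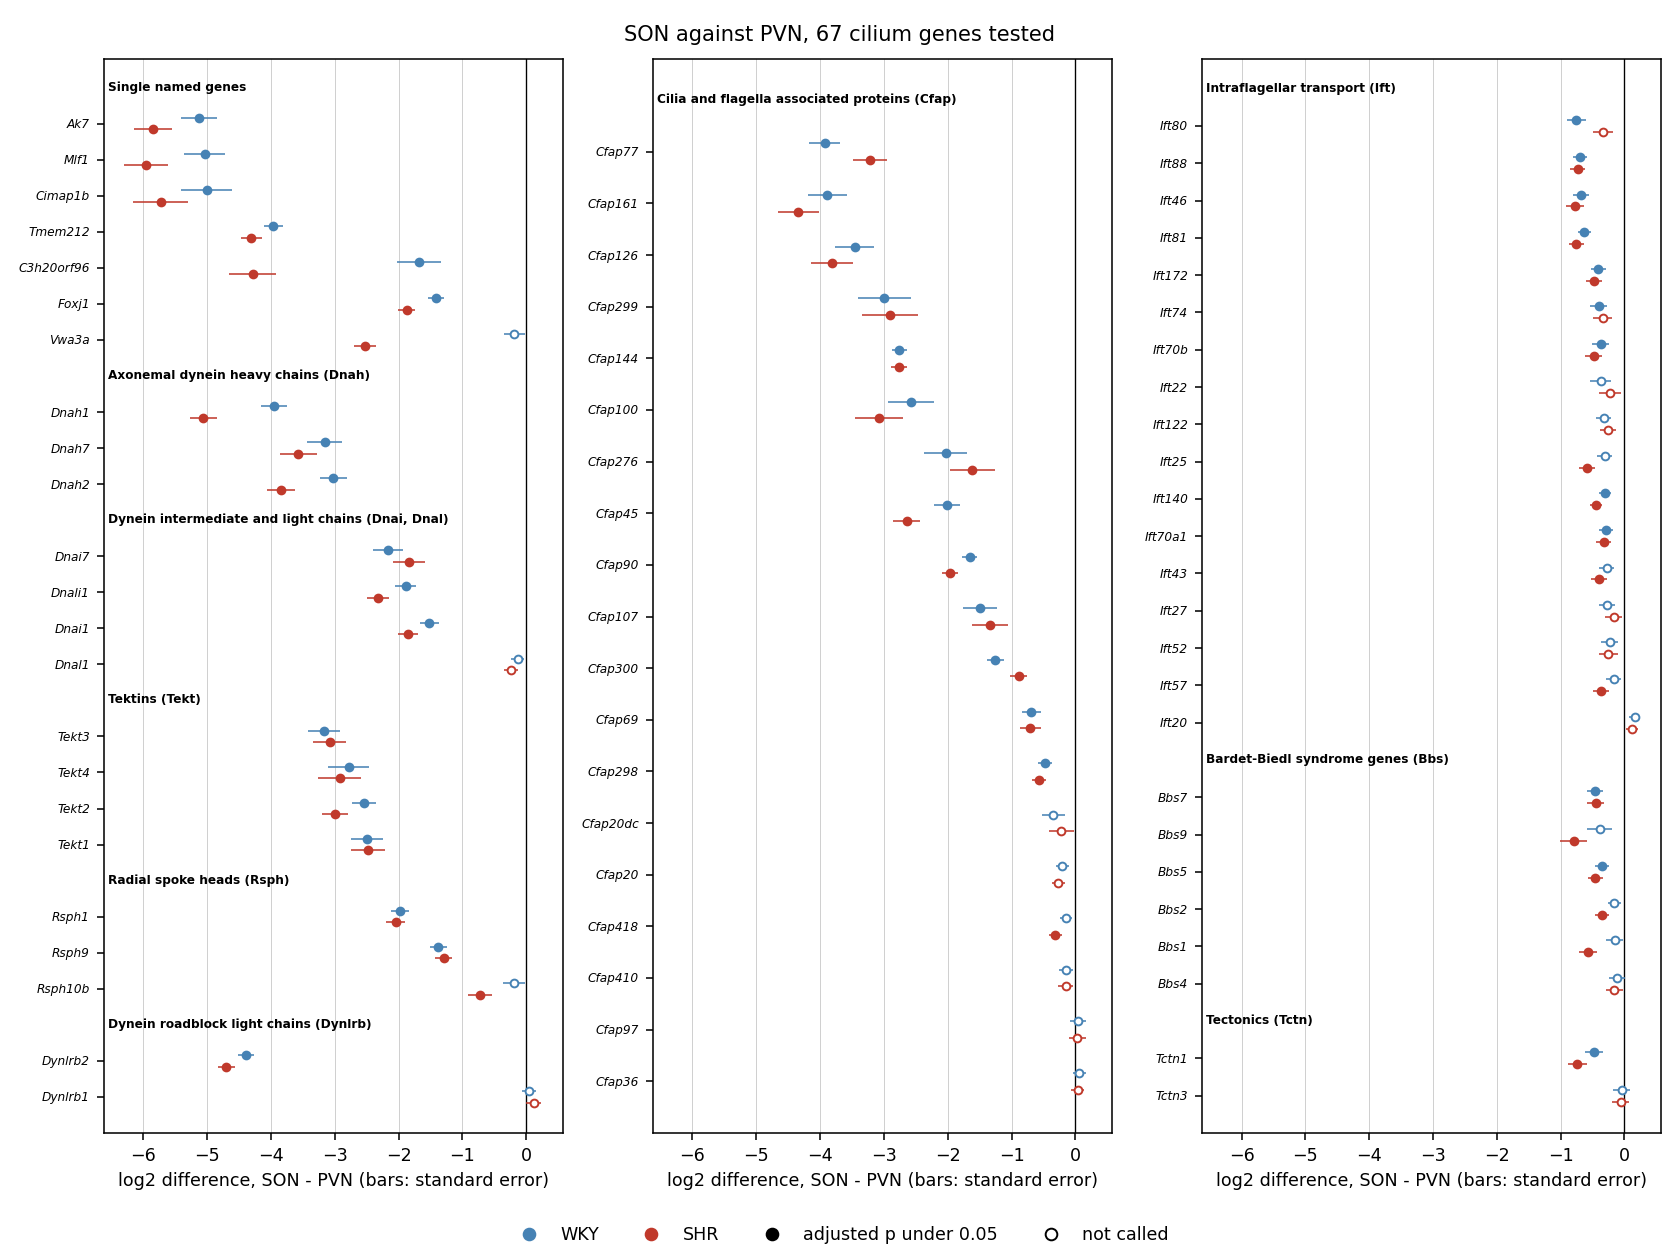
Log2 difference of the SON from the PVN (x axis, bars are standard errors) for each of the 67 cilium genes tested, by role, in WKY (blue) and SHR (red), filled where the adjusted p was under 0.05. Differences reach -5.96 among the genes given by name and -5.06 among the dynein heavy chains, and none of the Ift, Bbs and Tctn genes reaches -1.

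The genes given by name held the largest differences, but all except Foxj1 reached the filter only through the PVN. Ak7, an adenylate kinase of motile cilia, had PVN levels of 7.84, 7.49, 8.09, 7.98 and 7.93 in WKY and 8.47, 8.21, 8.34, 8.32 and 8.37 in SHR. In the SON its levels were 2.99, 1.91, 3.50, 3.23 and 2.05 in WKY and 1.91, 1.91, 3.13 and 3.04 in SHR. No SON array came near a PVN array, and 3 SON arrays were at the floor, so that the differences are lower limits in size. The difference was -5.13 ± 0.28 in WKY (SE, adjusted p = 2.38e-11) and -5.85 ± 0.30 in SHR (adjusted p = 8.35e-12).

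Mlf1, which encodes myeloid leukaemia factor 1, ran from 7.67 to 8.21 in the PVN of WKY and from 8.02 to 8.39 in that of SHR. In the SON, WKY arrays gave 3.61, 3.56, 1.91, 1.91 and 3.73 and SHR arrays 3.09, 1.91, 1.91 and 1.91. Most of these values are at the floor, so the differences of -5.04 ± 0.32 and -5.96 ± 0.34 (adjusted p = 2.86e-10 and 5.58e-11) are lower limits too. Cimap1b, a ciliary microtubule associated protein, was at the floor on 4 of 5 SON arrays of WKY and on all 4 of SHR, and ran from 6.67 to 7.84 in the PVN of WKY and from 7.54 to 7.70 in that of SHR. Its single SON array above the floor was WKY 3, at 4.87. The differences were -5.01 ± 0.40 in WKY and -5.73 ± 0.43 in SHR (adjusted p = 8.8e-09 and 2.4e-09), again lower limits in size.

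Tmem212, a transmembrane protein, was measured above the floor on every array. Its levels were 9.30, 8.93, 9.28, 9.22 and 9.19 in the PVN of WKY and 9.50, 9.37, 9.20, 9.21 and 9.37 in the PVN of SHR, against 5.02, 4.96, 5.77, 4.92 and 5.44 and 4.65, 4.99, 5.13 and 5.32 in the SON. The nuclei did not overlap in either strain, and the SON was lower by 3.96 ± 0.15 in WKY and 4.31 ± 0.16 in SHR (adjusted p = 1.56e-13 and 9.61e-14). Its second probe set was lower by 5.33 and 5.42.

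Foxj1, the regulator of the motile cilium programme, was lower in the SON but stayed well above the floor there. PVN arrays gave 7.59, 7.54, 7.97, 7.32 and 7.33 in WKY and 8.04, 8.03, 7.90, 7.95 and 8.18 in SHR, and SON arrays gave 6.03, 6.03, 6.09, 6.18 and 6.34 in WKY and 6.43, 5.85, 6.08 and 6.22 in SHR. The highest SON array lay below the lowest PVN array, and the differences were -1.42 ± 0.13 and -1.87 ± 0.13 (adjusted p = 3.46e-08 and 1.18e-09).

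**Figure D2:**
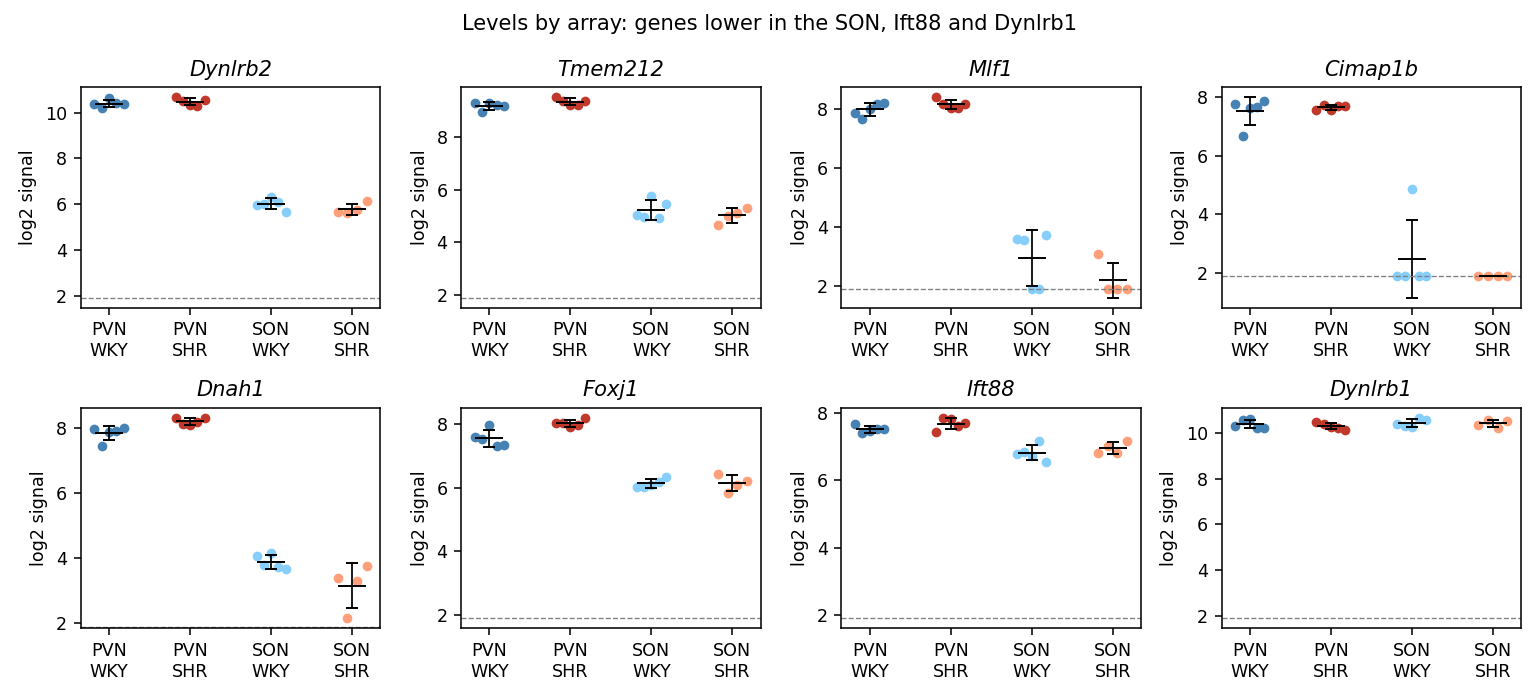
Log2 signal (y axis) on each array of the 4 groups for 8 cilium genes, with the mean and SD (black) and the floor of 1.91 (dashed). For Dynlrb2, Tmem212, Mlf1, Cimap1b, Dnah1 and Foxj1 all SON arrays lie below all PVN arrays, for Ift88 the gap is smaller, and the levels of Dynlrb1 overlap in the 4 groups.

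Dynein heavy chains, the motors of the axoneme, were lower in the SON for each of the 3 tested. All 3 reached the filter only through the PVN, so they had to be lower in the SON or stay near the limit. Dnah1, an inner arm heavy chain, had 7.85 ± 0.22 (SD, n = 5) in the PVN of WKY and 8.21 ± 0.10 in that of SHR, against 4.07, 3.79, 4.17, 3.74 and 3.66 and 3.40, 2.16, 3.30 and 3.75 on the SON arrays. The differences were -3.96 ± 0.20 in WKY and -5.06 ± 0.21 in SHR (adjusted p = 1.14e-11 and 8.92e-13). Dnah7 and Dnah2 were lower by 3.16 and 3.02 in WKY and by 3.57 and 3.84 in SHR. Dnah2 was at the floor on 4 of 9 SON arrays, so its differences are lower limits in size. Dnah17, a heavy chain known from sperm, was not tested, with levels from 1.91 to 4.66 over all arrays.

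Of the intermediate and light chains, Dnai7, Dnali1 and Dnai1 were lower in both strains. Dnai7 had PVN levels of 7.70, 7.66, 7.55, 7.62 and 7.94 in WKY and 8.15, 7.92, 8.01, 7.99 and 8.01 in SHR, and SON levels of 6.03, 5.76, 4.17, 5.96 and 5.72 and 6.08, 6.26, 6.16 and 6.22. The SON array WKY 3 was more than 1 log2 unit below the rest of its group, and the difference in WKY was -2.17 ± 0.23 with it and -1.83 without it. Dnal1, a light chain of the outer arm, differed by -0.13 and -0.24 and did not pass (adjusted p = 0.379 and 0.124).

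The 2 roadblock light chains, which serve cytoplasmic as well as ciliary dynein, parted. Dynlrb2 had 10.39, 10.18, 10.62, 10.40 and 10.37 in the PVN of WKY and 10.67, 10.52, 10.35, 10.31 and 10.55 in the PVN of SHR, but 5.95, 6.00, 6.32, 6.10 and 5.66 and 5.63, 5.62, 5.74 and 6.13 in the SON. Its differences of -4.39 ± 0.13 and -4.70 ± 0.13 had the smallest adjusted p of the cilium genes in both strains (1.7e-15 and 1.4e-15). Dynlrb1 ran from 10.13 to 10.65 over all 19 arrays with the 4 groups overlapping, and differed by 0.05 ± 0.11 in WKY and 0.12 ± 0.12 in SHR (adjusted p = 0.773 and 0.489).

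Tektins, which form filaments inside the axonemal microtubules, were lower for each of the 4 tested, but Tekt2, Tekt3 and Tekt4 reached the filter only through the PVN. Tekt1 had 7.86, 7.44, 7.86, 7.70 and 7.65 in the PVN of WKY and 8.42, 8.14, 8.00, 8.14 and 8.16 in the PVN of SHR, with 5.36, 5.50, 3.77, 5.63 and 5.80 and 5.88, 5.63, 5.69 and 5.54 in the SON. The difference was -2.49 ± 0.25 in WKY and -2.48 ± 0.27 in SHR (adjusted p = 2.56e-07 and 5.63e-07), and in WKY it was -2.13 without the SON array WKY 3. Tekt2, Tekt3 and Tekt4 were lower too, with differences of -2.54, -3.17 and -2.78 in WKY and -2.99, -3.08 and -2.92 in SHR, with Tekt3 at the floor on 7 of 9 SON arrays. Tekt5 was higher in the SON in the fit without a filter, the only cilium gene in that direction, with SON levels of 2.90, 3.51, 3.91, 3.20 and 2.43 in WKY and 4.17, 4.23, 4.06 and 3.47 in SHR and the PVN at the floor on 9 of 10 arrays.

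Among the 19 Cfap genes, all of them tested, 13 were lower in the SON of WKY and 14 in that of SHR, with medians of -1.50 and -1.34. The family is mixed. Cfap161, a microtubule inner protein, was lower with differences of -3.89 in WKY and -4.34 in SHR, Cfap77 with -3.93 and -3.22 and Cfap126 with -3.46 and -3.82. All of these reached the filter only through the PVN. Cfap144 had 9.18 ± 0.21 in the PVN and 6.42 ± 0.15 in the SON of WKY (SD, n = 5 each), a difference of -2.76 ± 0.12 (adjusted p = 1.02e-12), and its second probe set was lower by 2.84. At the other end Cfap97 and Cfap36 differed by 0.04 and 0.06 in WKY and by 0.03 and 0.04 in SHR. Cfap418 differed by -0.15 in WKY (adjusted p = 0.258) and was lower by 0.31 in SHR (adjusted p = 0.0207).

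Radial spoke heads, which link the central pair to the dynein arms, were lower for Rsph1 and Rsph9 in both strains. Rsph9 had 8.99 ± 0.24 and 8.92 ± 0.18 in the PVN and 7.61 ± 0.25 and 7.62 ± 0.10 in the SON of WKY and SHR. The probe set picked for Rsph10b differed by -0.20 in WKY (adjusted p = 0.432) and was lower by 0.73 in SHR (adjusted p = 0.00524), whereas its second, dimmer probe set was lower by 2.68 and 3.11, so the call for this gene depends on the probe set.

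Over all tested Dnah, Dnai, Dnal, Tekt, Cfap, Rsph genes and those given by name, 40 of 46, 31 were lower in WKY with a median of -1.99, and 34 in SHR with a median of -2.40. Their mean level per array, over all 46, was 6.34 to 6.66 in the PVN of WKY, 6.66 to 6.92 in that of SHR, 4.66 to 4.80 in the SON of WKY and 4.68 to 4.80 in that of SHR. Values at the floor hold these SON means up.

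Transport genes had smaller differences. Of the 25 tested Ift, Bbs and Tctn genes of 26, 12 were lower in the SON of WKY with a median of -0.33 and 16 in that of SHR with a median of -0.40, and none reached a 2-fold difference. By their means per array they stood at 6.93 to 7.10 in the PVN of WKY and 6.97 to 7.28 in that of SHR, against 6.50 to 6.82 and 6.60 to 6.72 in the SON. Ift88, a core protein of the transport train, had 7.67, 7.40, 7.44, 7.50 and 7.50 in the PVN of WKY and 6.78, 6.82, 6.71, 7.16 and 6.55 in the SON, a difference of -0.70 ± 0.11 (adjusted p = 0.000103). In SHR it had 7.42, 7.83, 7.81, 7.61 and 7.71 and 6.81, 7.00, 6.80 and 7.16, a difference of -0.73 ± 0.12 (adjusted p = 0.000109). Ift81 and Ift46 were lower by 0.63 and 0.68 in WKY and by 0.75 and 0.78 in SHR.

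Ift20, which carries cargo from the Golgi, ran from 8.37 to 8.83 over all arrays and differed by 0.16 ± 0.09 in WKY and 0.12 ± 0.09 in SHR (adjusted p = 0.202 and 0.373), the nuclei overlapping. Bbs5, a BBSome subunit, was lower by 0.35 ± 0.11 and 0.46 ± 0.12 (adjusted p = 0.0242 and 0.00534), and Tctn1 by 0.48 ± 0.13 and 0.74 ± 0.14 (adjusted p = 0.0118 and 0.000563). Tctn3 differed by -0.04 and -0.06 (adjusted p = 0.832 and 0.78). Called only in WKY were Ift74 and Ift80, and called only in SHR were Bbs1, Bbs2, Bbs9, Cfap418, Ift25, Ift43, Ift57, Rsph10b and Vwa3a, of which only for Vwa3a did the difference between the strains pass its own test, given below.

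Other genes of the same structures, in lists chosen with earlier results of these data known, were counted beside them. Of 37 further motile axoneme genes on the array, 29 were tested, and 26 were lower in the SON of WKY and 27 in that of SHR, with medians of -1.50 and -1.73 and 0 higher. Of these 29, 14 reached the filter only through the PVN, and of the 15 that reached it in both nuclei 12 were lower in WKY with a median of -0.94 and 13 in SHR with a median of -1.07. Iqca1 and Lrrc23 were lower by 1.87 and 2.41 in WKY and by 2.62 and 2.65 in SHR, and Iqca1 reached the filter only through the PVN. Of 46 further genes of the primary cilium and its transport, 42 were tested, and 15 were lower and 1 higher in WKY (median -0.21) and 20 lower and 1 higher in SHR (median -0.25). The gene that was higher in both was Kif7, a kinesin of the cilium tip, at 0.55 and 0.59. Of 15 regulators of multiciliated cells on the array, 9 were tested. Myb, an early factor of that lineage, was lower by 3.30 in WKY and 4.46 in SHR (adjusted p = 1.14e-08 and 2.88e-10), and Rfx3 by 0.74 and 0.80. Myb reached the filter only through the PVN. It was at the floor on at least 1 SON array of each strain, so its differences are lower limits in size. Rfx1 and Ccp110 were lower in both strains too, Rfx7 was lower and Rfx2 higher in WKY, and E2f4, E2f5 and Rfx4 did not pass in either.

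Markers of cell types that a dissected block can hold moved with the nucleus, and their part in the results was not tested. Of 8 ependymal markers that are not themselves cilium genes, 7 were tested, and in both strains 3 were lower in the SON and 3 were higher. Riiad1 was lower by 3.19 in WKY and 3.60 in SHR, Calml4 by 1.93 and 2.36, and Cd24 by 1.49 and 1.08. Rarres2 was higher by 1.54 and 1.96, and Tm4sf1 and Vim were higher too. Riiad1 and Calml4 reached the filter only through the PVN, so they had to be lower in the SON or stay near the limit. Cd24 and the markers that were higher reached it in both nuclei. The list as a whole had a mean level of 7.48 to 7.68 and 7.51 to 7.91 in the PVN of WKY and SHR, and 6.99 to 7.28 and 7.21 to 7.57 in the SON.

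All 7 meningeal markers were higher in the SON of both strains, but Dcn, Lum, Col1a1, Col1a2 and Col3a1 reached the filter only through the SON. The mean level of the list in WKY and SHR was 5.04 to 5.41 and 5.30 to 5.48 in the PVN. In the SON it was 7.76 to 8.40 and 8.16 to 9.51. Choroid plexus, another ciliated epithelium, was lower in the SON only for Folr1 (-1.81 and -1.58) of 4 markers tested, with Prlr and Aqp1 higher in SHR, and Ttr, its most abundant transcript, differed by 0.60 and 0.68 without passing. Of 4 tanycyte markers tested, Scn7a was lower and Vcan higher in both strains. Of the markers of the nuclei, only Sim1 was called in the direction opposite to the list it was placed in. Crh, Trh and Sst, made by PVN neurones, were lower in the SON by 3.60 to 4.79 in WKY, and Crh reached the filter only through the PVN. Avp and Oxt were high in all groups, with 2 of 4 magnocellular markers, Caprin2 and Pdyn, higher in the SON. Sim1, listed here with the PVN neurones, was higher in the SON of WKY by 0.39 (adjusted p = 0.0381) and differed by 0.35 in SHR (adjusted p = 0.0691).

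Of the general markers tested, neurones had 1 higher and 2 lower of 9 in WKY and 1 higher and 3 lower in SHR, astrocytes 3 higher and 0 lower of 5 in both, oligodendrocytes 0 higher and 1 lower of 5 in WKY and 3 higher and 0 lower in SHR, microglia 0 higher and 1 lower of 3 in both, and endothelium 2 higher of 4 in WKY and 1 in SHR.

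**Figure D3:**
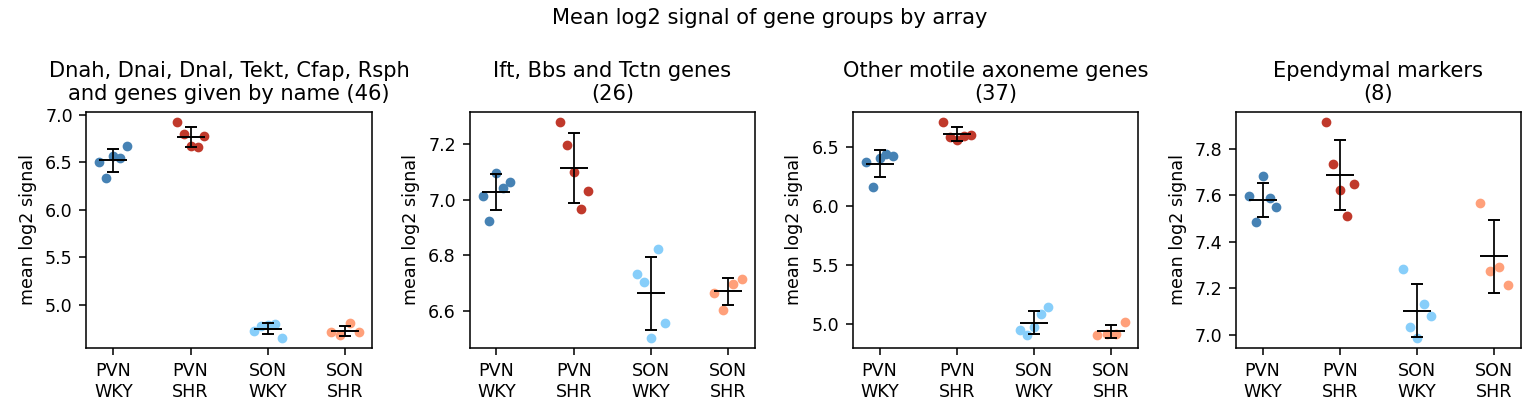
Mean log2 signal (y axis) of 4 groups of genes on each array of the 4 groups of samples, with the mean and SD of the arrays (black) and y axes that do not start at 0. For the 46 axoneme and singly named genes and the 37 further axoneme genes the SON arrays lie far below the PVN arrays, for the 26 Ift, Bbs and Tctn genes the gap is under 1 log2 unit, and for the 8 ependymal markers the SON of SHR reaches 7.57, inside the range of the PVN.

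The second question was how SHR differ from WKY. In the PVN, 4 of 67 cilium genes tested were higher in SHR, C3h20orf96, Vwa3a, Ak7 and Tekt1, and 0 were lower. Over all probe sets 1.14% were called higher and 1.22% lower. The 4 genes were known from earlier results of these data when the list was chosen, so their count cannot be weighed against these shares. Before adjustment 16 cilium genes had a p under 0.05 and were higher, and 1 (Cfap300) was lower. The share of all probe sets at this unadjusted limit was not counted, here or for the lists below. Of the 67 differences, 52 were above 0, with a median of 0.15. Of all probe sets 41.7% were above 0, with a median of -0.04. Without the PVN array WKY 2, which had the lowest mean over the 46 axoneme and singly named genes, 47 of 66 were above 0 with a median of 0.10. Without the PVN array SHR 1, which had the highest, 46 of 67 were above 0 with a median of 0.08, and the median of all probe sets was -0.08. C3h20orf96 and Vwa3a reached the filter only through SHR, so they could be tested only because they were high there. With the filter on the mean over all arrays Ak7 and Tekt1 were the genes called, and without a filter Vwa3a was.

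Vwa3a, which encodes a protein with a von Willebrand factor A domain, was the clearest of them. Its PVN levels were 4.01, 4.31, 3.96, 4.12 and 3.93 in WKY and 5.66, 6.63, 6.04, 6.62 and 6.26 in SHR. All 5 SHR arrays lay more than 1 log2 unit above all 5 WKY arrays, a difference of 2.17 ± 0.17 (adjusted p = 8.61e-07). In the SON its levels were 3.56, 3.70, 4.30, 3.72 and 4.11 in WKY and 3.74, 3.66, 3.77 and 3.69 in SHR, no array above the highest PVN array of WKY. The nuclei differed by -0.19 ± 0.17 in WKY (adjusted p = 0.428) and by -2.53 ± 0.18 in SHR (adjusted p = 9.06e-10).

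C3h20orf96, an open reading frame without an assigned function, had 2.53, 2.35, 4.24, 4.37 and 4.88 in the PVN of WKY and 6.56, 6.12, 5.92, 6.50 and 5.87 in that of SHR. The WKY arrays fell into a lower pair and a higher 3, and each lay below each SHR array. The difference was 2.52 ± 0.39 (adjusted p = 0.00141), and 2 alternatives lost the call, the fit with no filter and the test of the study's methods. In the SON it was at the floor on 8 of 9 arrays, so no strain difference could be measured there.

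Ak7 and Tekt1 had smaller differences. Ak7, with the PVN levels given above, was higher in SHR by 0.48 ± 0.12 (adjusted p = 0.0457) and Tekt1 by 0.47 ± 0.12 (adjusted p = 0.0442), and in each the lowest SHR array was above the highest WKY array. Both calls were close to the threshold, and 12 of 22 alternatives for Ak7 and 13 of 22 for Tekt1 lost them, most by leaving out a single array.

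**Figure D4:**
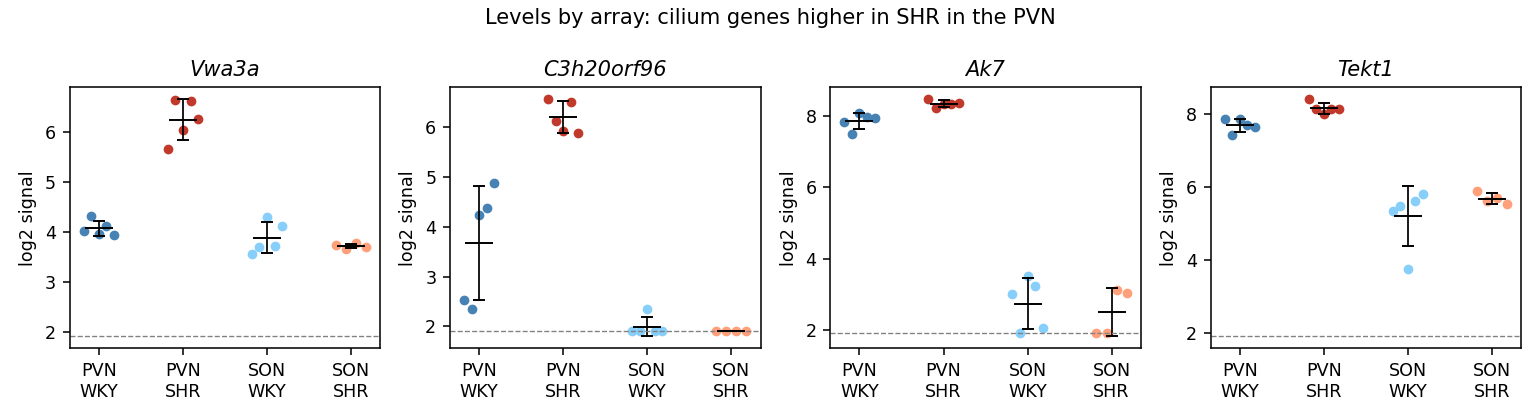
Log2 signal (y axis) on each array of the 4 groups for the 4 cilium genes called higher in the PVN of SHR, with the mean and SD (black) and the floor of 1.91 (dashed). Vwa3a and C3h20orf96 are separated between the strains in the PVN by 1 log2 unit or nearly so, Ak7 and Tekt1 by less, and in the SON the strains overlap.

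Other axoneme and singly named genes had differences in the same direction in the PVN that did not pass. Foxj1 had 4 of 5 WKY arrays below all SHR arrays and 1, WKY 3, within their range, a difference of 0.47 ± 0.13 (adjusted p = 0.0736). Cfap100 differed by 0.65 ± 0.17 (adjusted p = 0.0619), and the heavy chains Dnah2, Dnah7 and Dnah1 by 0.57, 0.45 and 0.37 (adjusted p = 0.13, 0.197 and 0.145). Not all of them shared the direction, with 7 of the 40 tested below 0 and Cfap300 the lowest at -0.28. Several cilium genes differed little, among them Dynlrb2 (0.09 ± 0.11), Tmem212 (0.15 ± 0.11), Mlf1 (0.17 ± 0.12), Cimap1b (0.13 ± 0.18) and Rsph9 (-0.07 ± 0.13).

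The 40 tested axoneme and singly named genes had a median of 0.19 with 33 above 0, and their mean level per PVN array was 6.50, 6.34, 6.56, 6.54 and 6.66 in WKY and 6.92, 6.80, 6.67, 6.66 and 6.77 in SHR. The highest WKY array lay just above the lowest SHR array, so the strains met. The 25 transport genes had a median of 0.10 with 18 above 0 and 0 called, the largest being Bbs9 (0.36 ± 0.17, adjusted p = 0.372).

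**Figure D5:**
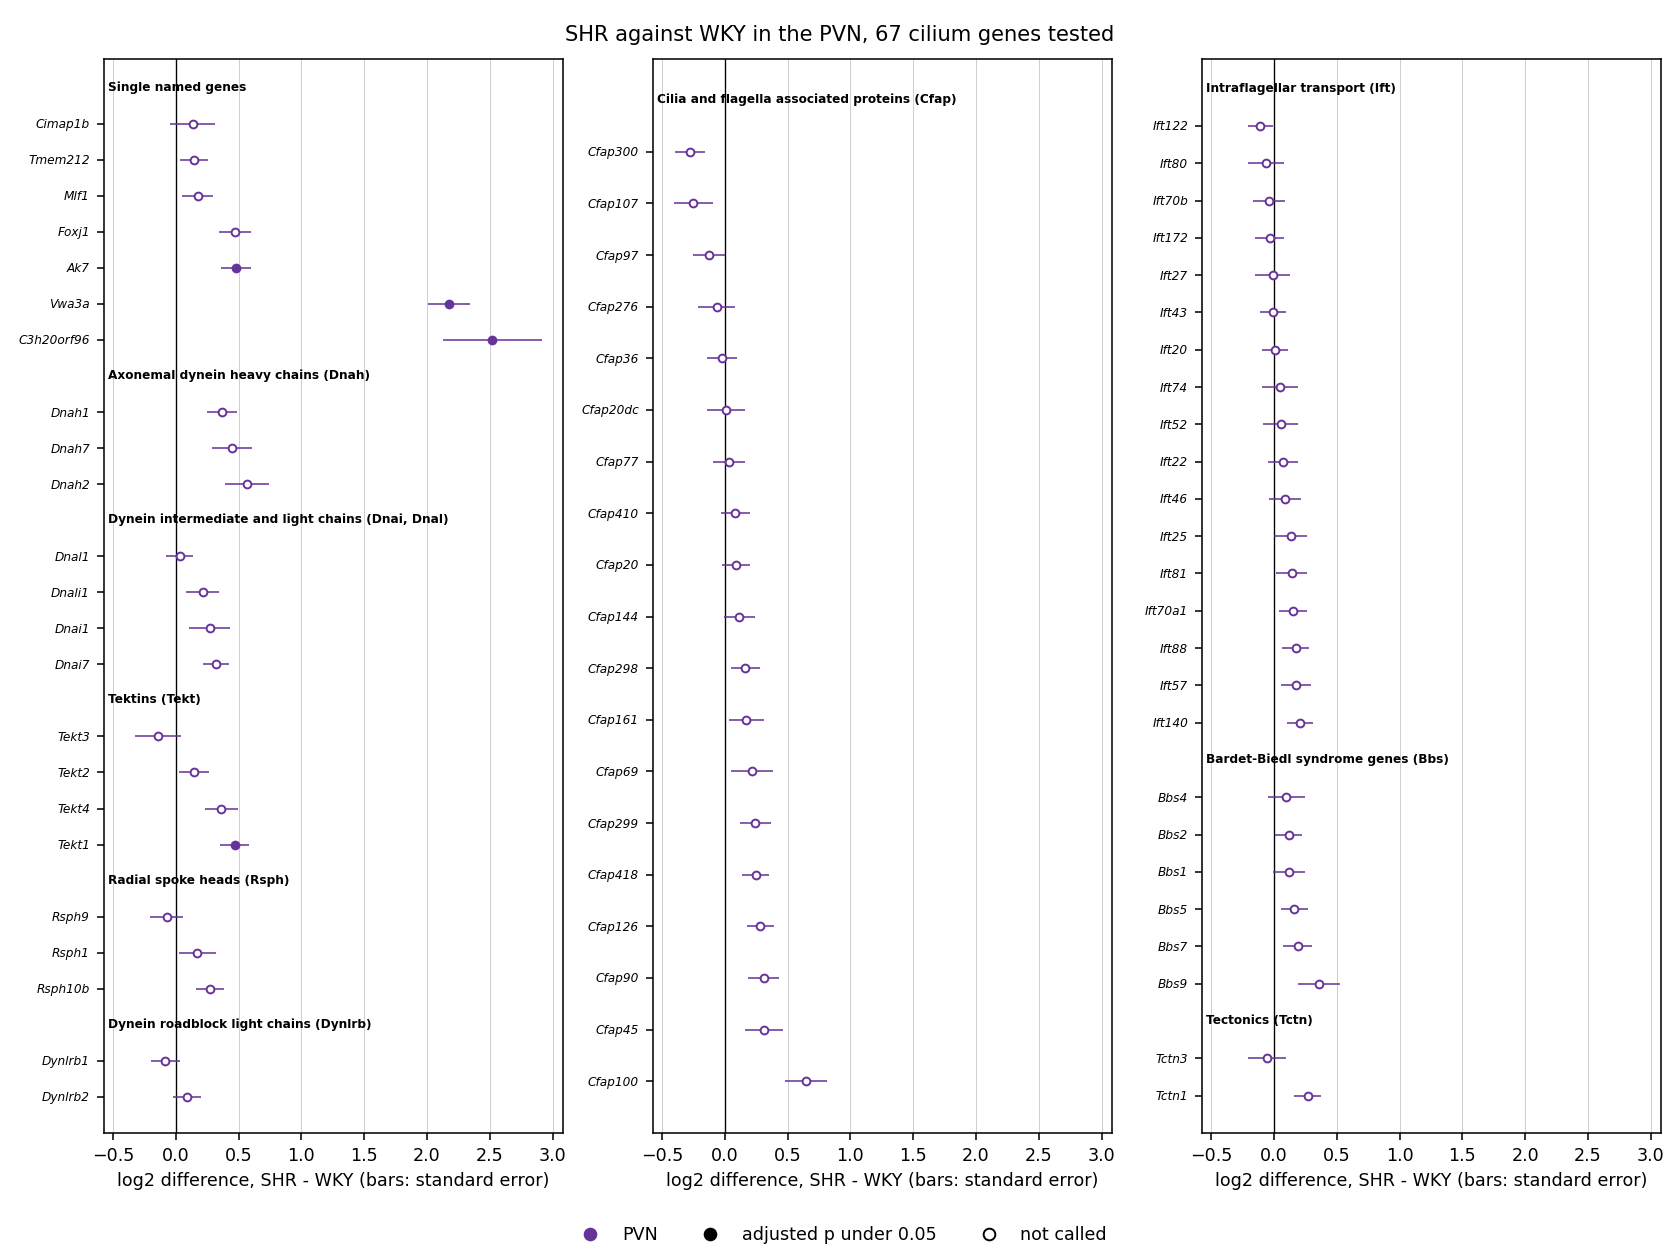
Log2 difference of SHR from WKY in the PVN (x axis, bars are standard errors) for each of the 67 cilium genes tested, by role, filled where the adjusted p was under 0.05. Vwa3a and C3h20orf96 lie at 2.17 and 2.52, Ak7 and Tekt1 near 0.5, and no other cilium gene was called.

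Further axoneme genes were also called in the PVN. Their list too was chosen with earlier results of these data known, so its counts cannot be weighed against the shares of all probe sets. Of the 29 tested, Spef1, a protein of the central apparatus, was higher in SHR by 0.66 (adjusted p = 0.00362), Odad4, of the outer dynein arm docking machinery, by 0.88 (adjusted p = 0.0178) and Dnaaf3, a dynein assembly factor, by 0.50 (adjusted p = 0.0289). 0 of 29 were called lower, and Odad4 reached the filter only through SHR. Of the 29, 15 were higher with a p under 0.05 before adjustment, and the median was 0.27. Myb was higher by 0.61 (adjusted p = 0.029), with WKY arrays from 5.66 to 6.41 and SHR arrays from 6.63 to 6.83, and was the only one of 9 regulators called. Of the 42 further primary cilium genes 0 were called in the PVN, and before adjustment 7 were higher and 3 lower at a p under 0.05.

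Of the ependymal markers 0 of 7 tested were called in the PVN, and before adjustment 2 were higher and 1 lower at a p under 0.05, with a median of 0.16. Riiad1 and Calml4 differed by 0.26 and 0.39 (adjusted p = 0.391 and 0.3). Of all other marker lists Sim1 of the PVN neurones was the only gene called between the strains in the PVN, where it was lower in SHR, and in the SON Sim1 was lower and the meningeal genes Lum and Dcn higher in SHR. Their part in the strain differences was not tested.

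In the SON, 0 of 45 cilium genes tested differed between the strains by limma, where 1.29% of all probe sets were called higher and 2.33% lower. Before adjustment 1 had a p under 0.05 and was higher (Ift80, 0.35 ± 0.15, adjusted p = 0.213) and 0 were lower, and the test of the study's methods with Benjamini-Hochberg adjustment called 0. The median was 0.01, with 26 above 0 and 19 below. The largest differences were those of Dnai7 (0.65 ± 0.31, adjusted p = 0.278) and Tekt1 (0.48 ± 0.33, adjusted p = 0.464). Without the SON array WKY 3, which was low in both, these were 0.31 and 0.12. Only 18 of the 46 axoneme and singly named genes reached the filter in the SON, so a strain difference could not be measured there for most of them. A second, dimmer probe set of Cfap69 was higher in the SON of SHR by 0.58 (adjusted p = 0.0129), while the probe set picked for the gene differed by 0.20 ± 0.12 (adjusted p = 0.4). Of the other lists, 0 of 15 axoneme, 0 of 42 primary cilium and 0 of 8 regulator genes tested were called in the SON, and 1 of 5 ependymal markers was, Cd24, higher by 0.67 (adjusted p = 0.0393).

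The third question was whether the strain difference depends on the nucleus. The strain effect of the SON less that of the PVN was called for 1 of the 67 cilium genes, Vwa3a, at -2.34 ± 0.24 (adjusted p = 4.33e-05), where 0.0117% of all probe sets were called higher and 0.0702% lower. This test shares its arrays with the comparisons above, and Vwa3a reached its filter only through the PVN of SHR. It was called without a filter too. C3h20orf96 came next at -2.61 ± 0.51 (adjusted p = 0.0556), with the SON at the floor. Dnah1 had -1.10 ± 0.30 (adjusted p = 0.319), Foxj1 -0.46 ± 0.18 (adjusted p = 0.631), Ak7 -0.72 ± 0.41 (adjusted p = 0.79) and Tekt1 0.01 ± 0.37 (adjusted p = 0.998), so for these a difference between the nuclei in the effect of strain was not shown. The fits without both arrays that stood apart gave 43 cilium genes lower in the SON of WKY, 52 lower in the SON of SHR and 1 in this test.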

How the data were processed

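RNA of the PVN and SON of WKY and SHR was measured on Affymetrix rat genome arrays after 1 round of linear amplification. The authors deposited signal intensities made with MAS5, as named in the submitters' processing notes, on a linear scale. Their later GeneSpring normalisation and present calls are not in these values, and the fifth SHR SON array was not analysed here. Each of 19 arrays was grouped by its title. Of 31099 probe sets 57 controls were left out, 20826 had a single symbol (20758 updated through the Entrez number), 436 had several and 9780 had none.

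Signals were scaled to a common array median, floored at the 10th percentile and log2 transformed. Strains were compared within a nucleus from the arrays of its 2 groups, and nuclei and the interaction from all 4 groups (filter at log2 5.32), with limma 3.58.1 in R 4.3.3 over all probe sets that passed the filter. The number of arrays limits the precision. Alternatives covered scaling, floor, filter, groups in the fit, moderation, array weights, the methods' t-test and fold limit, the replicate number as a block and each array left out. The fit without both arrays that stood apart was added after the data had been seen. The procedure was tested on simulated data.

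The cilium genes, marker lists and other gene lists were chosen with earlier results of these data known, and Vwa3a, C3h20orf96, Ak7 and Tekt1 were among those results. Named throughout were the genes given by name, the member of each family with the highest mean and, of those called, the 12 with the largest rise and fall in a comparison, and up to 4 called genes of each further list. Other members and list genes in the text were chosen after their values had been seen. Promoters came from RefSeq (GRCr8). Plots used Python 3.11.15 and matplotlib 3.10.9.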

Additional observations from a re-analysis of the deposited data

Results flagged for a closer look

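In 11 of 88 groups of arrays tested, over 22 named cilium genes, the highest or lowest array stood apart from the rest by Dixon's test, which flags about 1 group in 20 by chance. In 5 of the 11 all other arrays of the group were at the floor, where any array above it is flagged, so that rate does not hold for them. The SON array WKY 3, which correlated least with its own group, was 1 of them for 4 genes. It was low for Tekt1 (3.77, others 5.36 to 5.80) and Dnai7 (4.17, others 5.72 to 6.03) and high for Cimap1b (4.87, others 1.91) and C3h20orf96 (2.35, others 1.91). The PVN array WKY 2 was low for Cimap1b (6.67, others 7.61 to 7.84) and Dnah1 (7.47, others 7.90 to 8.00). Against groups at the floor of 1.91, the SON array SHR 1 was high for Mlf1 (3.09) and Tekt3 (2.74), and the SON array WKY 5 for Tekt3 (3.21). The PVN array SHR 1 was high for Cfap418 (9.44, others 9.03 to 9.14), and the PVN array WKY 1 for Tctn3 (6.87, others 6.52 to 6.59). The strain difference of Vwa3a differed between the nuclei by -2.34 (SON minus PVN, the interaction test given above).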

How the results depend on the processing

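Cilium genes were called lower in the SON under every alternative. Between 38 and 48 were called in WKY and between 41 and 54 in SHR under every alternative except the 2-fold limit, which left 30 in each, and leaving out 1 array gave 39 to 46 and 48 to 51. The size of the largest differences depended on how low values were treated. With log2(signal + 16) Ak7 in WKY went from -5.13 to -3.46, Mlf1 in SHR from -5.96 to -4.01, Cimap1b in SHR from -5.73 to -3.62 and Dnah2 in WKY from -3.02 to -1.49. The median over the cilium genes tested in WKY went from -0.68 to -0.49 without a filter and to -0.48 with the filter on the mean over all arrays. In the SON 0 were called between the strains under every alternative, the left-out arrays included (0 to 0). The count of 4 higher in the PVN of SHR depended on the setting. It was 9 with values as deposited, 7 with array weights, 1 without a filter, 2 with the filter on the mean over all arrays, 2 with all 4 groups in the fit, 1 in the methods' t-test and 2 with the 2-fold limit. It was 2 to 4 when 1 array was left out, and 2 (C3h20orf96 and Vwa3a) without any one of the PVN arrays WKY 2, WKY 4, SHR 2, SHR 3, SHR 4 and SHR 5. The interaction count of 1 became 2 with log2(signal + 16), with the floor at the 20th percentile and with the stricter filter, and 0 with the filter on the mean, in which Vwa3a was not tested. Leaving out 1 array gave 1 to 2, the second gene being C3h20orf96 without the PVN array WKY 4 or WKY 5. The shares of all probe sets called under the alternatives were not counted, and the causes were not tested.

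Arrays with the same number did not deviate together across strains (correlations -0.26 to 0.10 in the PVN and -0.01 to 0.12 in the SON) or across the nuclei of WKY (-0.02 to 0.00), and across those of SHR they had 0.03 to 0.19, so the numbers were not taken as pairs. With the replicate number as a block 3 cilium genes were called in the PVN (Ak7 and Tekt1 lost, Cfap100 gained), 0 in the SON, 39 between the nuclei of WKY, 47 between those of SHR and 1 in the interaction.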

Other observations

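Hedgehog signalling runs through the primary cilium, and 11 of its genes were on the array, 4 of them tested. Boc, a co-receptor, was higher in the SON of SHR by 2.50 (adjusted p = 0.00143), but reached the filter only through that group and was at the floor on at least 1 PVN array of each strain, and Gpr161, a ciliary receptor that holds the pathway back, was lower there by 0.64 (adjusted p = 0.00727). In WKY they differed by 1.21 and -0.42 and did not pass (adjusted p = 0.084 and 0.0543). Smo and Gli1 did not pass in either strain, and 0 of the list were called between the strains by limma in either nucleus.

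Without a filter Tekt5, a tektin known from sperm, was higher in the SON, opposite to Tekt1, Tekt2, Tekt3 and Tekt4. The difference was 1.22 ± 0.21 in WKY (SE, adjusted p = 0.00066) and 2.07 ± 0.22 in SHR (adjusted p = 5.6e-06). The strain difference of Tekt5 in the SON was 0.79 ± 0.31 (adjusted p = 0.31). Tekt5l1 was at the floor on all 19 arrays.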
